A study of Cervus nippon with 4 samples.

Results

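In the back muscle of sika deer, 120 abundant gene models had their lowest level in the library of juvenile deer, where every older library had more than 2 times as much. The longissimus dorsi, the long muscle beside the spine, was taken for mRNA sequencing from Shuangyang sika deer of 1 year (juvenile, Msc_1), 3 years (adolescence, Msc_2), 5 years (adult, Msc_3) and 10 years (aged, Msc_4). The labels name no treatment and no difference between the groups other than age. A single library was made per age from the pooled RNA of 3 deer, which leaves the variation among deer unmeasured. No test between ages was run here. Every difference given here is a difference between libraries.

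Muscle grows after birth mainly by the enlargement of fibres that are already present, while the makeup of the contractile proteins and of the enzymes of energy metabolism is still being adjusted. The long back muscle is made largely of fast fibres, and it also holds connective tissue, vessels, nerves and fat. The RNA of a whole muscle is the sum of all these cells. A lower level can therefore come from fewer cells of a type or from less RNA per cell, and these cannot be told apart in pooled tissue.

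The abundance is given as FPKM, the fragments of a gene model scaled to its length and to the fragments of its library, as deposited and without further scaling. The members were chosen from these values: a gene model had to reach 15 FPKM in each of Msc_2, Msc_3 and Msc_4 and to exceed 2 times its FPKM in Msc_1 in each of these 3 libraries. Of 326981 gene models with a listed value anywhere in the series, 3283 reached 15 FPKM in each later library, and 120 of these, 3.66%, met the rule. The remaining 3163 are called the other abundant gene models. Since the level in Msc_1 and its distance from the later libraries made the choice, they are described and not tested. The identifiers are built as an assembly without a genome builds them, from the number of a component and of a gene within it, and no file gives a gene name for any of them. The unigenes of the study carry identifiers of another kind, so the gene models may come from another assembly and are not taken to be those unigenes. The roles of the members, the muscle markers and the lists of pathway genes were for that reason not looked up, and no sequence is shown.

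The files listed between 170939 and 182429 gene models per library, and their FPKM summed to between 761348 in Msc_1 and 825006 in Msc_3. The read depth behind a single value is unknown, because neither read counts nor the lengths of the gene models were used here. Gene models listed in a single library show how high a value can stand with nothing beside it. The highest of them had 16.42, 14.95, 17.22 and 22.46 FPKM in Msc_1 to Msc_4. A member near 15 FPKM thus stood at a level that gene models found in only 1 library also reached, or in Msc_2 came close to.

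Among the members, the median was 10.8 FPKM in Msc_1 (lowest 0, highest 365.05). The later medians were 39.2 for Msc_2 (15.25 to 938.93), 42.2 for Msc_3 (15.07 to 754.27) and 50.1 for Msc_4 (15.12 to 922.48). The rule asks for a step of more than 2 times between Msc_1 and Msc_2 and for none after it, so the large first step is the choice itself. The other abundant gene models had medians of 38.0, 36.8, 40.0 and 38.2 FPKM in the same order. The members were thus not rarer than other abundant transcripts in the later libraries, and stood below them in Msc_1. Together they held 0.446% of the FPKM of Msc_1, 1.28% of Msc_2, 1.31% of Msc_3 and 1.49% of Msc_4.

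**Figure D1:**
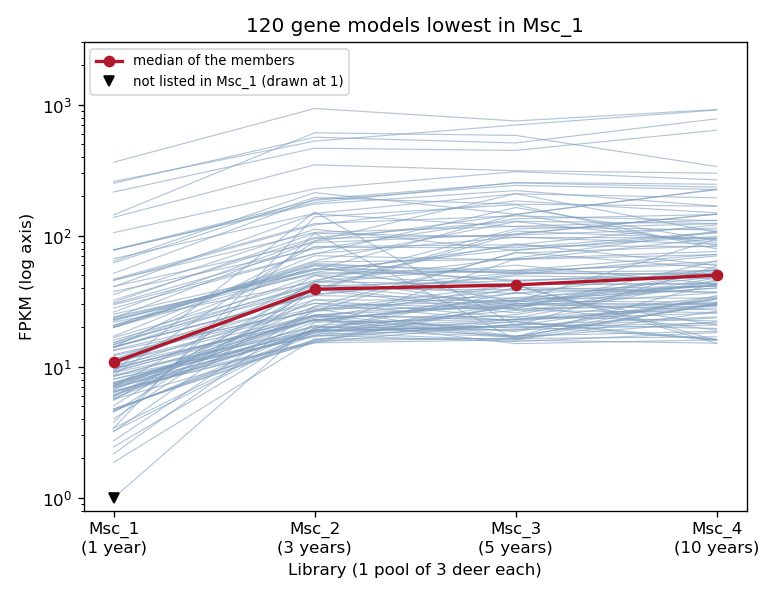
FPKM (log axis) of each of the 120 members in the 4 libraries, 1 thin line per gene model, with the median of the members as a thick line; each library is 1 pool and carries no error bar. The median goes from 10.8 FPKM in Msc_1 to 39.2 in Msc_2 and reaches 50.1 in Msc_4, and the member that Msc_1 did not list is drawn at 1 as a triangle.

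The background of single comparisons was counted over the 3283 gene models of 15 FPKM or more in each later library. More than 2 times the level of Msc_1 was reached by 6.31% in Msc_2 vs. Msc_1 (207 gene models), 8.5% in Msc_3 vs. Msc_1 (279) and 8.41% in Msc_4 vs. Msc_1 (276). The 120 members are the gene models common to these counts, which all use the same Msc_1 library. In the opposite direction, 3.26%, 2.07% and 3.17% lay below the level of Msc_1 by more than 2 times. The median of the members was 2.88 times Msc_1 in Msc_2 (quartiles 2.40 and 3.72), 3.30 times in Msc_3 (2.56 and 4.75) and 3.59 times in Msc_4 (2.91 and 5.23). For the other abundant gene models these medians were 0.979, 1.05 and 1.02.

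Most members lay near the limit of the rule. The lowest of the 3 later libraries was 2.56 times Msc_1 in the median member (quartiles 2.23 and 3.32), against 0.868 times in the other abundant gene models. It was at most 3 times Msc_1 in 83 members, over 4 times in 19 and over 10 times in 5, where the member not listed in Msc_1 counts as past every limit. The member closest to the fold limit had 8.51, 17.06, 20.85 and 24.06 FPKM from Msc_1 to Msc_4. A gene model just outside had 11.95, 23.69, 28.75 and 44.66 FPKM, so that its Msc_2 value fell short of the limit. Between 1.8 and 2 times there were 44 gene models outside, and between 2 and 2.2 times 26 members. At the limit of abundance, a member with 6.71, 23.05, 15.07 and 16.06 FPKM was inside, and a gene model with 7.23, 21.19, 14.96 and 15.26 FPKM was outside. A further 51 gene models passed the fold limit with a lowest later value of 10 FPKM or more but under 15.

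**Figure D2:**
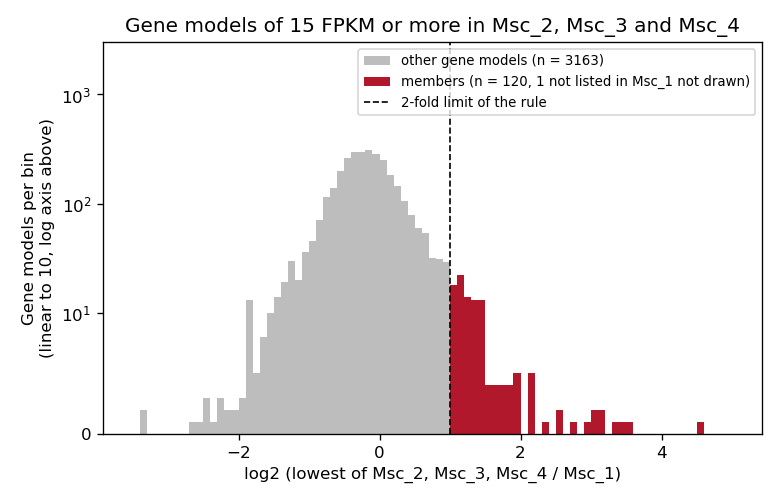
Number of gene models (linear to 10, log axis above) by the log2 ratio of the lowest of Msc_2, Msc_3 and Msc_4 to Msc_1, for the members and the 3163 other abundant gene models. The members are the right edge of 1 continuous distribution, and the dashed line is the 2-fold limit that chose them. Of the 19 members over 4 times, the 1 that Msc_1 did not list is not drawn.

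Msc_1 did not list 1 member, and it listed no member at or below 1 FPKM. There were 16 members between 1 and 5 FPKM in Msc_1, 57 between 5 and 15, 33 between 15 and 60, and 13 above 60. Under 15 FPKM in Msc_1 were 61.7% of the members, 74 in all, and 154 of the 3163 other abundant gene models. The rule itself favours values under 15 FPKM in Msc_1, since it places Msc_1 below the later libraries. With the 1 exception, the transcripts were listed in the juvenile library at a lower level than later. Among them, 46 members reached 15 FPKM there.

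The 2 members that stood farthest above Msc_1 were c126386_g1 and c659579_g2, ranked by the difference between the lowest later library and Msc_1 in log2(FPKM + 0.1). c126386_g1 was not listed in Msc_1, and its later values were 21.94 (Msc_2), 23.09 (Msc_3) and 29.81 FPKM (Msc_4). These lay close to each other, and no fold is given against a library that does not list it. It was the only gene model listed for its component. c659579_g2 had 3.42 FPKM in Msc_1 against 139.74 in Msc_2, 173.13 in Msc_3 and 79.54 in Msc_4, so that its lowest later value was 23.3 times Msc_1. Its level in Msc_4 was the lowest of the later 3, and Msc_1 lay far below it. The component of c659579_g2 held another 2 gene models above 1 FPKM. The first had 0.27, 5.16, 4.46 and 2.13 FPKM from Msc_1 to Msc_4, again lowest in Msc_1 and next lowest in Msc_4. The other was not listed in Msc_1 and had 1, 1.94 and 3.59 FPKM in the later libraries.

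The next members by this rank either stood higher at every age or were nearly level after Msc_1. One had 3.21, 38.38, 103.7 and 146.67 FPKM from Msc_1 to Msc_4. Another had 8.67, 90.79, 145.64 and 227.23 FPKM, and one more had 2.73, 29.01, 73.93 and 83.99. In these 3 members each library was above the one before it. By contrast, a member with 4.52 FPKM in Msc_1 had 39.6, 38.85 and 41.43 FPKM in the later libraries, and one with 1.87 FPKM in Msc_1 had 16.39, 16.47 and 16.97. Both were over 8 times Msc_1 and nearly level from Msc_2 to Msc_4.

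The 2 members with the largest difference of Msc_2 above Msc_4 were c636435_g1 and c660381_g2. c636435_g1 had 3.78 FPKM in Msc_1 and 104.47 in Msc_2, then 16.22 in Msc_3 and 30.65 in Msc_4, so that Msc_2 was 3.41 times Msc_4. It was high in a single library, and Msc_3 lay only just above the limit of abundance. c660381_g2 had 5.06 FPKM in Msc_1 and 44.84 in Msc_2, then 42.32 in Msc_3 and 15.99 in Msc_4, where Msc_2 was 2.80 times Msc_4. It was high in Msc_2 and Msc_3 and in the oldest deer stood at 3.16 times its juvenile level. The other gene model of its component had 0.41, 7.9, 9.93 and 1.51 FPKM from Msc_1 to Msc_4, also high in the middle libraries and lower in both outer ones. A further member with a peak in Msc_2 had 9.18, 152.58, 20.63 and 58.79 FPKM, the widest spread among the later libraries of any member (7.40 times).

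The most abundant members lay close to the fold limit. Over 300 FPKM in each later library were 6 members, and over 100 FPKM were 18. The highest had 365.05, 938.93, 754.27 and 922.48 FPKM from Msc_1 to Msc_4. A second had 260.13, 528.94, 701.91 and 913.73 FPKM, and another 252.6, 566.63, 512.36 and 782.97. All 3 were already well above the abundance limit in the juvenile library and just past 2 times that level in their lowest later library. The next had 216.28, 467.18, 449.53 and 640.89 FPKM. The last 2 differed from these in their course after Msc_2. They had 144.74, 612.45, 585.09 and 338.51 FPKM and 138.71, 348.83, 314.44 and 301.21 FPKM, and in both each value after Msc_2 was lower than the one before it.

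The order of the later 3 libraries was not fixed by the rule. Msc_4 was the highest library in 61 members (50.8%), Msc_3 in 35 (29.2%) and Msc_2 in 24 (20.0%). Of the other abundant gene models, 27.5% were highest in Msc_4, 41.4% in Msc_3 and 31.1% in Msc_2. Under the 3 scalings between libraries that were tried, the share highest in Msc_4 was between 46.5% and 47.4% of the members, and between 18.3% and 20.3% of the others. The members thus more often had their highest value in the aged library than the others did, by a count that has no test, since gene models of the same libraries are not replicates. The share depended on the limits of the rule. A minimum of 60 FPKM gave 34 members with 38.2% highest in Msc_4, and a fold over 4 gave 19 with 68.4%. The others were not counted at these limits. FPKM was higher at each step from Msc_1 to Msc_4 in 38 members (31.7%), and 14.7% of the others were higher at both steps from Msc_2 to Msc_4. With scaling these shares were between 25.2% and 26.2% and between 8.73% and 9.98%. Of the 38 members, 14 were higher by at least 1.2 times at both steps after Msc_2, and 3 by at least 1.5 times. Their Msc_4 value was between 2.39 and 45.7 times Msc_1 with a median of 4.81, the member not listed in Msc_1 left out of the upper value. In 8 members (6.67%) both Msc_3 and Msc_4 were lower than the library before them, against 14.3% of the others. These 8 members had medians of 36.1, 126.0, 107.7 and 98.7 FPKM.

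**Figure D3:**
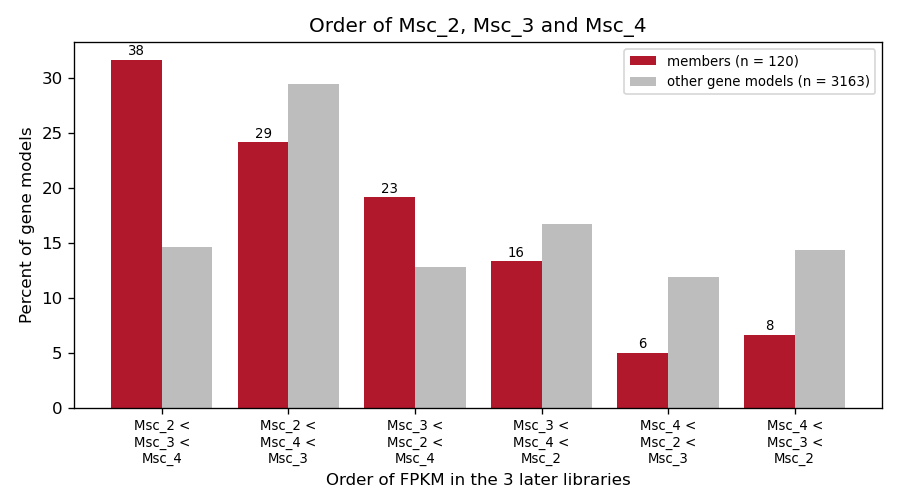
Percent of gene models with each order of FPKM in Msc_2, Msc_3 and Msc_4, for the 120 members (dark bars, with their number) and the 3163 other abundant gene models (light bars). The order Msc_2 < Msc_3 < Msc_4 holds 31.7% of the members and 14.7% of the others. Both orders with Msc_4 lowest hold few members (6 and 8, or 5% and 6.67%), against 11.9% and 14.3% of the others.

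The later libraries were also compared with each other in pairs. In Msc_3 vs. Msc_2, 73 of 120 members were higher (60.8%), close to the 56.1% of the other abundant gene models. By more than 2 times, 10 members were higher and 2 were lower. In all 3283 abundant gene models the shares beyond 2 times were 6.67% and 1.25%, close to the 8.33% and 1.67% of the members. In Msc_4 vs. Msc_3, 77 members were higher (64.2%, against 44.3% of the other abundant gene models). Higher by more than 2 times were 5 (4.17%, background 0.944%), and 3 were lower by more than 2 times (2.5%, background 1.74%). In Msc_4 vs. Msc_2, 90 members were higher (75%, against 57.0% of the other abundant gene models). Higher by more than 2 times were 13 (10.8%, background 2.19%), and 3 were lower by more than 2 times (2.5%, background 1.61%). The median log2 difference of the members in Msc_4 vs. Msc_2 was 0.34 (quartiles 0.00 and 0.66), and that of the other abundant gene models 0.07 (quartiles -0.18 and 0.33). These 3 comparisons share libraries and are not separate evidence.

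The highest of the later libraries was 1.47 times the lowest in the median member (quartiles 1.29 and 1.92) and 1.36 times in the other abundant gene models. In 24 members (20.0%) the spread was over 2 times, where 11.1% of all abundant gene models passed this limit. At most 1.3 times separated the later libraries in 30 members, 25% of them, and in 41.6% of the others. In 10 members the later libraries lay as far apart as the lowest of them stood above Msc_1, or farther. One such member had 15.26, 59.17, 31.42 and 95.16 FPKM from Msc_1 to Msc_4.

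The members came from 113 components. The component is the unit in which an assembly keeps sequences that overlap, so that gene models of 1 component can be parts or copies of a gene and can share reads. Alone in their component were 34.2% of the members and 26.5% of the other abundant gene models. Components with 2 members numbered 7, and no component held more. In one of them the members had 40.97, 147.22, 117.71 and 110.93 FPKM and 31.16, 104.68, 97.62 and 86.52 FPKM from Msc_1 to Msc_4. Both were highest in Msc_2 and lower at each later age. In another pair, one member had 64.16, 213.93, 146.14 and 225.36 FPKM and the other 4.69, 17.47, 15.62 and 18.31, the same course at a lower level. The order of the later libraries was the same within 3 of the 7 pairs. It differed in a pair with 14.3, 35.01, 33.47 and 33.55 FPKM beside 13.3, 26.76, 75.15 and 56.55, where the juvenile values were close and the adult and aged ones were not.

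The components of the members held 193 other gene models, of which 80 exceeded 1 FPKM in at least 1 library. The rule was applied to these gene models too, and they did not meet it. Those of 15 FPKM or more in each later library could therefore not be more than 2 times Msc_1 in all 3. More than 2 times Msc_1 was reached in all 3 later libraries by 26 of the 80 (32.5%), in 1 or 2 of them by 30 and in none by 24. Of the 67002 gene models above 1 FPKM in components without a member, where the same holds, 3217 reached it in all 3 (4.80%). Abundance differs between these sets, so a closer set was taken from components that hold another abundant gene model but no member, leaving out gene models of 15 FPKM or more in each later library on both sides. There, 5.30% of 1659 gene models were more than 2 times Msc_1 in all 3 later libraries, and 26 of 69 (37.7%) beside the members were. The middle of the 3 later values was 2.15 times Msc_1 in the median gene model beside a member and 1.01 times in the closer set, on the scale of FPKM + 0.1, which understates the change of low gene models. Many of the 26 gene models that passed beside the members had under 1 FPKM in Msc_1, some of them 0, where a small later value passes the limit. With 15 FPKM or more in at least 1 library, 1.78% of 5402 gene models in components without a member passed in all 3 later libraries. Beside the members, 5 of 22 (22.7%) did. Since reads can be shared within a component, these gene models are not independent of the members, and the part of shared reads was not tested.

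**Figure D4:**
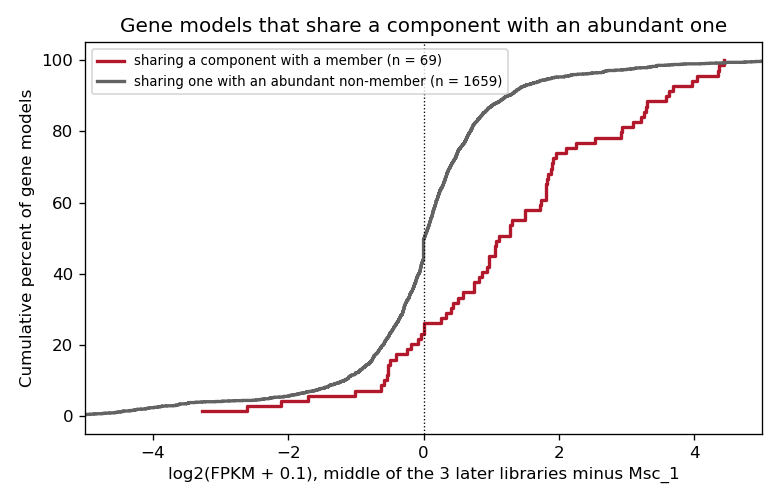
Cumulative percent of gene models by the difference in log2(FPKM + 0.1) between the middle of the 3 later libraries and Msc_1, for 69 gene models that share a component with a member and 1659 that share one with another abundant gene model; all exceed 1 FPKM in a library and are under 15 FPKM in a later one. The median is 1.11 beside the members and 0.01 in the other set.

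In some components every gene model above 1 FPKM stood lower in the juvenile library than in each later one. One component held 2 members and 3 other gene models above 1 FPKM, and all 5 were more than 2 times Msc_1 in each later library. It also listed a gene model that stayed at or below 1 FPKM and was not counted. Of these 3, one had 7.23, 21.19, 14.96 and 15.26 FPKM from Msc_1 to Msc_4, another 2, 5.33, 8.38 and 7.73, and the last 1.7, 4.36, 7.66 and 3.77. In 10 of 46 components with a gene model above 1 FPKM beside the member, every such gene model was more than 2 times Msc_1 in all later libraries, and in 28 none was. The components were therefore mixed. The member with 11.37, 32.54, 32.11 and 39.92 FPKM shared its component with a far more abundant gene model, with 7605.18 FPKM in Msc_1 against 3682 in Msc_2, 10847.9 in Msc_3 and 6945.8 in Msc_4. That gene model was lower in Msc_2 and Msc_4 than in Msc_1 and higher in Msc_3, while the member was higher in each later library. Another gene model of this component had 16.86, 35.65, 31.98 and 33.92 FPKM, also above Msc_1 in each later library. One more had 1.2, 0.77, 1.45 and 1.89 FPKM, below Msc_1 only in Msc_2.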

How the data were processed

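The mRNA of 4 pools of 3 deer was sequenced by the authors on a HiSeq2500. Reads with adaptors or of low quality were removed, and the authors deposited FPKM values per gene model with 2 decimals. The submitters' processing notes name Bowtie 0.12.2 without a role, and the sources used here name neither assembler nor counter. The authors compared the libraries in pairs with DEGseq on their unigenes, and those calls were not used here. The present design planned no test, since each age has 1 library.

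The files were joined on the identifier in Python 3.11.15 (pandas 2.3.3, numpy 2.4.6), and figures were drawn with matplotlib 3.10.9. A gene model not listed was set to 0. The members and limits were chosen with earlier results of these data known. Identifiers printed are the 2 members with the largest difference between the lowest later library and Msc_1 and the 2 with the largest drop from Msc_2 to Msc_4, in log2(FPKM + 0.1). The other members are given by their values. Gene lists and cell type markers were planned only for the case that identifiers could be paired with names, and gave no value. The code was tested on simulated data. The alternatives were 3 scalings between libraries (trimmed mean of M-values, trimming 30% (M) and 5% (A) at each end, median of ratios and upper quartile), a pseudocount of 1, other limits of abundance and fold, and the rule without 1 later library.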

Additional observations from a re-analysis of the deposited data

How the results depend on the processing

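No paired analysis was possible because a single library stood for each age and nothing was tested. There was no replicate to leave out, and no result met the limits set for a closer look. A count or median was taken as stable within 1.5 times its value, and a percentage within its 95% exact binomial interval, which covers counting error only. That interval treats gene models as independent draws, which those of the same libraries are not.

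The 3 scalings and the pseudocount of 1 in the fold left all results within these limits, as sets that share most members tend to do. They gave between 112 and 127 members, and of the 120, 117 remained with the trimmed mean of M-values, as many with the median of ratios, and 106 with the upper quartile. With Msc_2 left out of the rule the members numbered 258, with Msc_3 left out 178 and with Msc_4 left out 162, so that Msc_2 removed most. Other limits select other gene models by construction. A minimum above 0.3 FPKM gave 4290 members with a median lowest fold of 4.17, 98.9% of them under 15 FPKM in Msc_1, and 2.71% of the FPKM of Msc_4. A minimum of 60 FPKM gave 34 members, 38.2% highest in Msc_4 and 8.82% under 15 FPKM in Msc_1. A fold over 4 gave 19 members with a median lowest fold of 7.88 and 0.156% of the FPKM of Msc_4. Of these members, 100% were under 15 FPKM in Msc_1, 68.4% highest in Msc_4 and 52.6% higher at each step. Of the gene models above 1 FPKM beside them, 71.4% were more than 2 times Msc_1 in all later libraries. That share rests on far fewer gene models than the 80 of the main rule. A fold over 1.5 gave 272 members, 46.0% under 15 FPKM in Msc_1, and 6.88% of the FPKM of Msc_4. The gene models beside the members were not recounted with the pseudocount, the minimum of 0.3 FPKM or the fold of 1.5. The depth behind single values is unknown.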

Other observations

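Of the 80 gene models above 1 FPKM that share a component with a member, 14 (17.5%) were below Msc_1 in all 3 later libraries, a smaller share than the 26.2% of the 67002 in components without a member. Beside the members and under 15 FPKM in a later library it was 17.4% of 69, and in the closer set of 1659 it was 22.8%. Of the 14, one had 13.58, 5.16, 4.07 and 3.77 FPKM from Msc_1 to Msc_4, beside a member with 24.17, 52.14, 54.36 and 60.92 FPKM. In another component, a gene model with 13.53, 1.31, 0.76 and 9.87 FPKM and one with 6.77, 2.45, 1.49 and 1.2 FPKM stood beside a member with 10.3, 22.64, 30.53 and 30.34 FPKM. In both of these components the member and the gene models given so far beside it differed in direction. The first component was mixed. It also held gene models with 3.85, 6.15, 14.14 and 8.13 FPKM and with 6.23, 11.39, 19.36 and 13.08 FPKM. Like the member, these were above Msc_1 in each later library. One more was above 0 only in Msc_3 (1.86 FPKM).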
